A study of Homo sapiens with 4 samples.

Results

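Binding of the oestrogen-related receptor ERRα was examined at 10 genes that govern the entry of pyruvate into mitochondria, namely the carrier genes MPC1 and MPC2, the pyruvate dehydrogenase genes PDHA1, PDHB, DLAT and DLD, and the pyruvate dehydrogenase kinase genes PDK1, PDK2, PDK3 and PDK4. They are 10 of the 20033 protein-coding genes on chromosomes 1 to 22, X and Y in the RefSeq table, and they were chosen by name, not by their signal. All peaks whose summit lay inside one of them or within 50 kb were taken, which gave 22 of the 14072 peaks of replicate 1, 15 of the 12659 peaks of replicate 2 and 13 of the 10059 peaks matched between the replicates. The cells were MDA-MB-231, a human breast cancer line that lacks the oestrogen receptor, and the assay was ChIP-seq, the sequencing of DNA pulled down with an antibody, with 2 ERRα ChIP libraries and 2 input libraries of chromatin without immunoprecipitation. All 4 libraries came from this single line with no treatment named, and per the series' design text from 2 cultures, so the replicates measure the spread between cultures of this line and not between tumours. Peak lists hold no expression values, so the cell line was not checked against marker genes. The protocol names fixation with 1% formaldehyde and 5 µg of an ERRα antibody on chromatin of 2500000 cells, and gives read numbers that were taken to mean 29000000 for ERRα and 10000000 for input.

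Pyruvate made by glycolysis crosses the inner mitochondrial membrane through a carrier built from MPC1 and MPC2. In the matrix the pyruvate dehydrogenase complex turns it into acetyl-CoA: PDHA1 and PDHB encode the subunits that decarboxylate pyruvate, DLAT the acetyltransferase core, and DLD the dehydrogenase that restores the lipoyl group and that other oxoacid dehydrogenases also use. The kinases PDK1 to PDK4 phosphorylate PDHA1 and switch the complex off, which leaves more pyruvate for lactate. ERRα is an orphan nuclear receptor known as a regulator of mitochondrial energy genes, and PDK4 is one of its known targets in muscle. A nuclear receptor of this family binds an extended site that ends in the core AGGTCA.

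The 13 matched peaks were split by their irreproducible discovery rate (IDR), a measure of how well the replicates rank a peak alike. The limit used, an IDR of 0.05 (score 540 or more), was met by 6 of the 13 and by 5070 of all 10059 matched peaks. These are called reproducible peaks below. They lay inside or within 50 kb of 4 genes, MPC1, MPC2, DLAT and PDK2. Folds are those the authors deposited for each peak, the ChIP signal at the summit over a background that peak calling estimates from the inputs. Where the mean of both replicates is given, its error is the SD with n = 2. Within 1 kb of either gene end, a reproducible summit was found for 1 of the 10 genes, MPC1, against 4.49% of all protein-coding genes. Inside the gene or within 50 kb it was found for 4 of the 10, against 33.7% of all protein-coding genes. The first count is a single gene, and no test was made on a list of chosen genes.

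The promoters shown here are those of the pyruvate entry genes that a peak overlapped. These were a strong peak at MPC1, a weak one at DLAT and a peak of replicate 1 alone at PDK4. The summits at MPC1 and PDK4 lay outside the printed bases. Each is the 300 bases from 250 before to 50 after a RefSeq transcription start (GRCh38.p14), 5′ to 3′ on the strand of the gene. Capitals mark the core AGGTCA in DLAT, and the 9 bases of the ERR motif TNAAGGTCA, read on the other strand, in SDHD. The SDHD promoter is the site of the strongest peak within 50 kb of DLAT. MPC1 is at chr6:166382891-166383190 (minus strand), DLAT at chr11:112025158-112025457 (plus), PDK4 at chr7:95596467-95596766 (minus) and SDHD at chr11:112086623-112086922 (plus).
MPC1: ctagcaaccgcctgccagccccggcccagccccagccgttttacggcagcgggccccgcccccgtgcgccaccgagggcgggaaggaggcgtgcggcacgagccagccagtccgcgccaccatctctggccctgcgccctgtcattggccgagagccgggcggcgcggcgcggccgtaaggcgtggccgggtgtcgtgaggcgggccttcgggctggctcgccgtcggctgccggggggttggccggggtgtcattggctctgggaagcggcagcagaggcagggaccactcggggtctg
DLAT: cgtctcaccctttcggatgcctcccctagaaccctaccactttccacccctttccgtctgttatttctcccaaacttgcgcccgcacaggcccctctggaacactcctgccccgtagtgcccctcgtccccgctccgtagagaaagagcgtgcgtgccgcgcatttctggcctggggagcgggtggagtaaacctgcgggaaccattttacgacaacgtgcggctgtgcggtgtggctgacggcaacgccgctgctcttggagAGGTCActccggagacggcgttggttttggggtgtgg
PDK4: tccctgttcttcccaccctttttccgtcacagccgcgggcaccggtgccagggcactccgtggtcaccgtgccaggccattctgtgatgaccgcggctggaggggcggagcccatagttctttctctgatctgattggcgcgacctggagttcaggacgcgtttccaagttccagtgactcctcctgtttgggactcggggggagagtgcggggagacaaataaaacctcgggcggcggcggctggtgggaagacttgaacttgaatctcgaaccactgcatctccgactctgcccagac
SDHD: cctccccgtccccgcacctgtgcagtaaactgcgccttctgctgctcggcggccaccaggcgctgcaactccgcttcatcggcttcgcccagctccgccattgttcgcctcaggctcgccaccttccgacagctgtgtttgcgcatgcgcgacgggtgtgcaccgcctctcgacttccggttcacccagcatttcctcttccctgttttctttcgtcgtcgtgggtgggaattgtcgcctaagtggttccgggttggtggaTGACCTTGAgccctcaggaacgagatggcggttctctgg

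MPC1 had the clearest peak at a gene start. The matched peak spanned chromosome 6 from 166382345 to 166383895 (GRCh38), 1551 bp, and covered the whole promoter window printed above. Its fold was 22.7 in replicate 1 and 23.7 in replicate 2, a mean of 23.2 ± 0.702 (SD, n = 2), with an IDR score of 1000. The replicate folds lay 0.993 apart, and the height was 1.80 times the median of all reproducible peaks, 12.9. The summit lay 386 bp upstream of the first transcribed base of MPC1, outside the printed window. It lay inside MPC1-DT, a non-coding RNA gene that runs in the opposite direction, 148 bp from its start. The summit was thus within 1 kb of both starts, and a link to either gene was not tested. By mean fold the peak was number 931 of the 5070 reproducible peaks. MPC1 was number 206 of the 899 genes with a reproducible summit within 1 kb of an end. The genes whose peak at an end was nearest in height over both replicates were FAM193A, with folds of 22.8 and 24.2, MICU3, a regulator of mitochondrial calcium uptake, with 22.5 and 23.4, and SH3GLB2 with 22.2 and 23.6. The other peak of the MPC1 window was found in replicate 1 alone, with a fold of 5.65 and a summit inside SFT2D1, 29.3 kb beyond the last base of MPC1.

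At MPC2, whose product pairs with MPC1, both matched summits lay inside the gene and not at its first base. The stronger peak (chromosome 1, 167933640 to 167934434) had folds of 24.0 in replicate 1 and 23.4 in replicate 2, a mean of 23.7 ± 0.431 (SD, n = 2) and an IDR score of 1000. Its summit was 3061 bp downstream of the first base and 1985 bp from the nearest of the 3 RefSeq starts of MPC2. The span of DCAF6, a gene of a ubiquitin ligase adaptor, covers the same place, and its nearest RefSeq start was 2.23 kb away. The mean folds of the MPC1 and MPC2 peaks, 23.2 and 23.7, were no further apart than the 2 replicates of MPC1. The weaker MPC2 peak (167934741 to 167935866) had folds of 8.15 and 7.25 (mean 7.70 ± 0.635, SD, n = 2). Its IDR score of 531 fell just short of 540, and its summit was 814 bp from a RefSeq start of MPC2. With a window of 5 kb around gene ends in place of 1 kb, MPC2 and PDK2 join MPC1, for 3 of the 10 genes, against 9.28% of all protein-coding genes. MPC1 stayed the only one of the 10 with summits within 500 bp of an end (2.82% of all protein-coding genes), at an IDR of 0.01 (3.63%), with a −log10 q of at least 5 in both replicates (4.49%) and at RefSeq starts in place of either end (4.51% of the genes with a listed start).

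**Figure D1:**
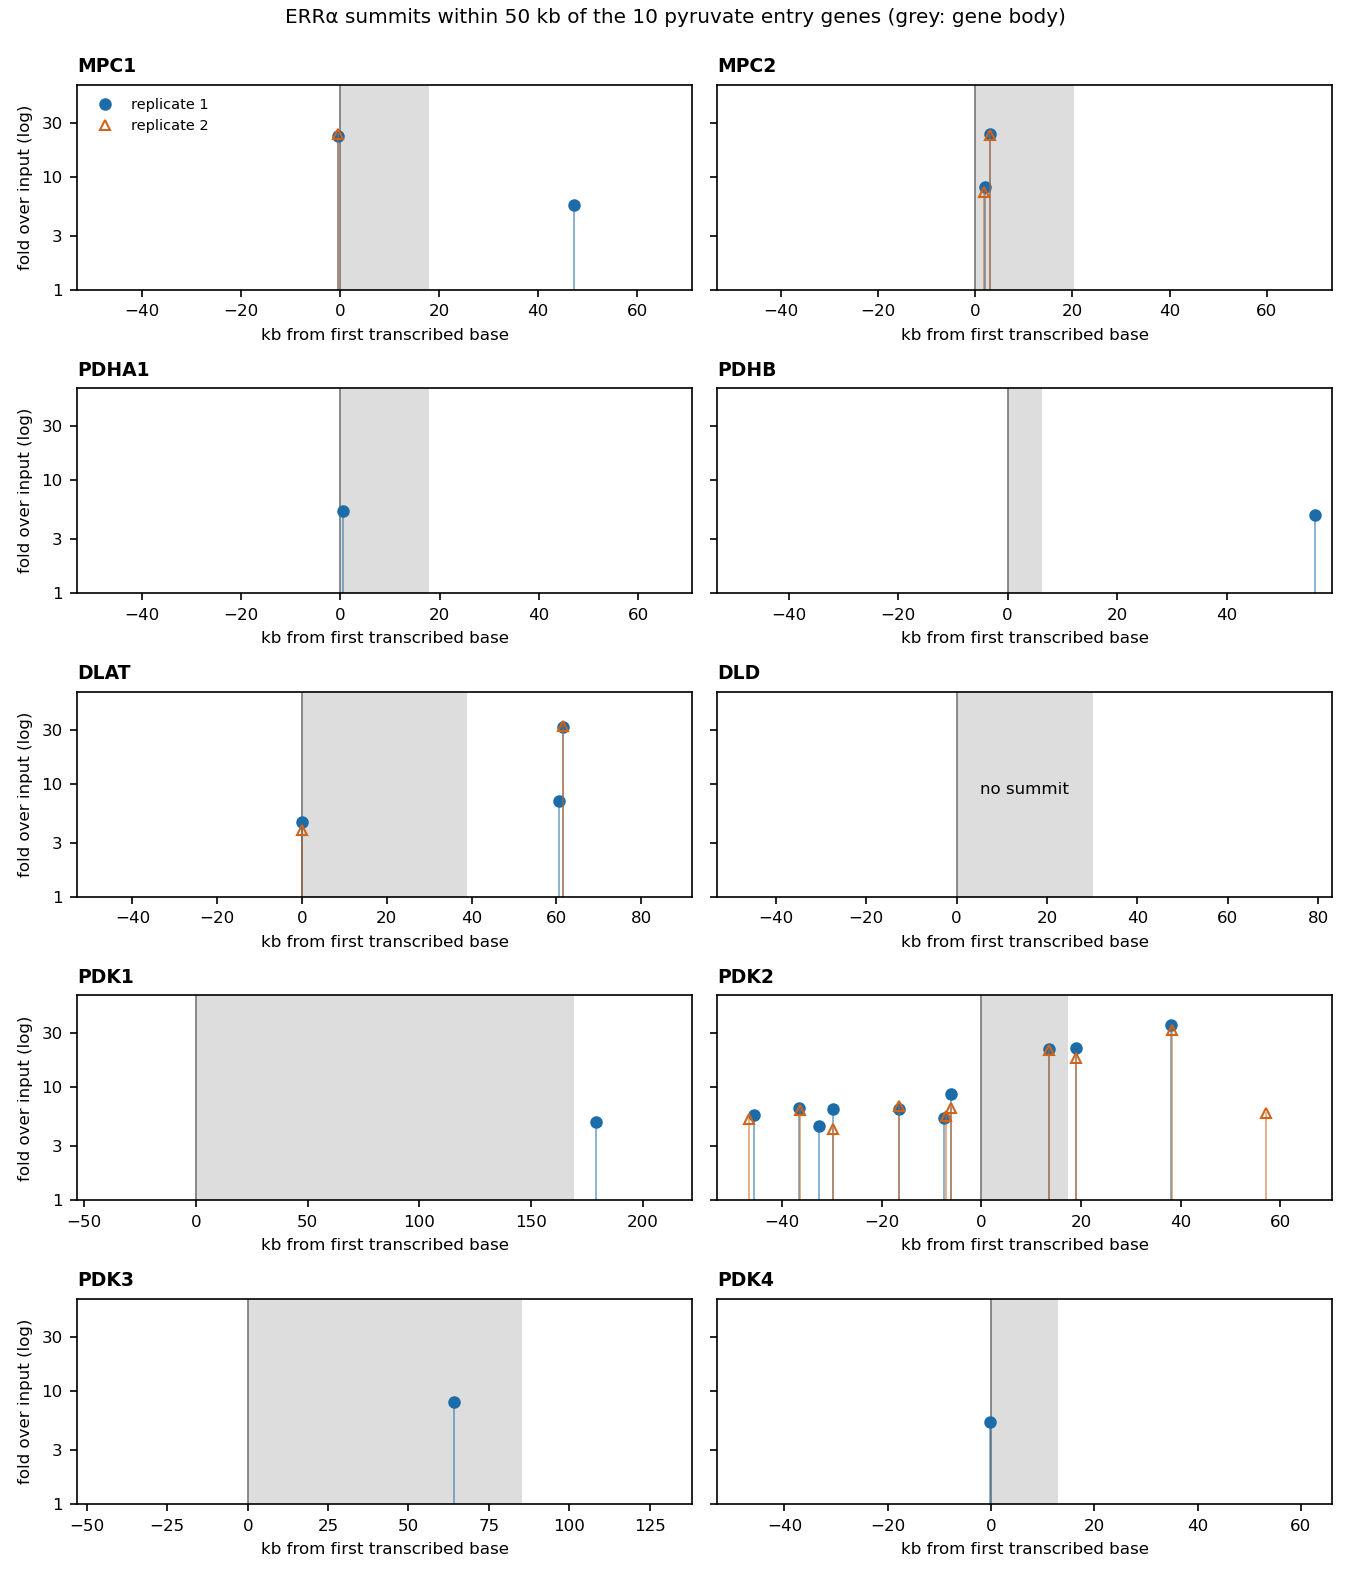
Summits of the replicate peak lists at each of the 10 genes, by distance in kb from the first transcribed base along the direction of transcription (x) and fold enrichment over input on a log scale (y). Grey bands are gene bodies, filled circles replicate 1 and open triangles replicate 2. Folds above 15 in both replicates occur in the windows of MPC1, MPC2, DLAT and PDK2. The summits in the windows of PDHA1, PDHB, PDK1, PDK3 and PDK4 are from replicate 1 alone.

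Among the genes of the dehydrogenase complex itself, DLAT was the only one with a summit in both replicates. A weak peak sat on its first transcribed base: the summit was 35 bp upstream in replicate 1, with a fold of 4.55, and 8 bp downstream in replicate 2, with a fold of 3.88. The mean was 4.21 ± 0.474 (SD, n = 2) and the IDR score 154, the lowest value in the matched list, so it did not count as reproducible. Of the replicate 1 peaks, 9.26% had a lower fold than this one, and of the replicate 2 peaks 2.38%. The core AGGTCA, in capitals in the DLAT sequence above, occupied bases 14 to 19 of the transcript (chr11:112025421-112025426). It was searched after the sequences had been seen, and 11.9% of all protein-coding promoter windows hold it. The longer AAGGTCA and TNAAGGTCA were absent from the DLAT window, and binding at the core was not tested.

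The reproducible peak of the DLAT window was a different one, 22.5 kb past the last base of DLAT (chromosome 11, 112085889 to 112087304). Its folds were 31.6 in replicate 1 and 32.2 in replicate 2, a mean of 31.9 ± 0.454 (SD, n = 2). That is higher than 89.8% of all reproducible peaks. The summit lay 22 bp from the start of SDHD, which encodes a membrane subunit of succinate dehydrogenase, and 139 bp from the upper end of TIMM8B, a gene of mitochondrial protein import. It was 61.5 kb from the start of DLAT. In the SDHD sequence above the motif TNAAGGTCA occurs once, on the opposite strand, as TCAAGGTCA at bases 12 to 20 counted from the start, with its centre 7 bp from the matched summit. In replicate 1 a second, smaller peak with a fold of 6.99 lay beside it, in TIMM8B, and fell under the same matched peak.

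PDHA1 had a peak in replicate 1 alone, inside the gene at 597 bp from its first base (X, 19344345 to 19344639), with a fold of 5.33 and a −log10 q of 4.74. The nearest replicate 2 summit was 171 kb away. PDHB had no summit in the gene. Its window held a single replicate 1 peak of fold 4.92 inside PXK, 49.86 kb from PDHB and thus just within the limit of 50 kb. The nearest summit outside that limit at any of the 10 genes was 74.4 kb from PDK1. DLD, with a window of 130 kb, had no summit in either replicate, and the nearest replicate 1 summit was 86.9 kb away. The nearest reproducible summit was 1790 kb from DLD, a greater distance than for any other of the 10 genes, and 3.61% of all protein-coding genes were farther from one.

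Of the 4 kinase genes, PDK2 alone had reproducible summits. Its window of 117 kb held 10 summits in replicate 1 and 10 in replicate 2, 8 matched peaks and 3 reproducible ones. At least 10 replicate 1 summits were found for 87 protein-coding genes (0.434%), and at least 3 reproducible ones for 3.87%, where neighbouring genes share summits. The 3 strong peaks were all downstream of the starts of PDK2. One lay in the gene, 13.6 kb from the first base and 3.81 kb before the last (chromosome 17, 50107813 to 50109053), with folds of 21.8 in replicate 1 and 21.3 in replicate 2 (mean 21.5 ± 0.348, SD, n = 2). The next was 1549 bp past the last base of PDK2, inside SAMD14 (50113233 to 50114187), with 22.1 and 18.1 (mean 20.1 ± 2.79, SD, n = 2). The strongest was 20.8 kb past PDK2 and 811 bp from the lower end of PPP1R9B, which encodes a regulator of a protein phosphatase (50132368 to 50133462). It had folds of 35.4 and 31.8 (mean 33.6 ± 2.52, SD, n = 2). The first and second of these means lay within 1 SD of each other, taking the SD of the SAMD14 peak, and the third was higher than both in each replicate.

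The other 5 matched peaks of the PDK2 window lay upstream, 6.11 to 36.5 kb before the first base, and all were inside ITGA3, which encodes an integrin alpha subunit. Their mean folds ran from 5.36 to 7.58, and none was reproducible, with IDR scores from 154 to 432. At the summit 29.7 kb upstream the fold was 6.42 in replicate 1 and 4.31 in replicate 2. No peak of either list lay within 1 kb of a RefSeq start of PDK2.

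The other kinase genes had 1 peak each, in replicate 1 alone. The PDK4 peak was at the promoter (chromosome 7, 95596656 to 95597017), with its summit 257 bp upstream of the first base. That summit was just outside the window printed above, which covers only part of the peak. It lay inside the non-coding antisense gene PDK4-AS1. The fold of the PDK4 peak was 5.33 and its −log10 q 4.74, and the nearest replicate 2 summit was 201 kb away. This pair of values was the same as at PDHA1 and at the PDK2 summit 7.45 kb upstream of that gene, and 290 of the 14072 replicate 1 peaks carried it. PDK3 had a peak of fold 7.99 inside the gene, 64.2 kb from its start, the highest of the 8 peaks in these windows that replicate 1 held alone. PDK1, the kinase known for its induction by hypoxia, had a peak of fold 4.89 at 10.0 kb past its last base. That summit was within 1 kb of an end of RAPGEF4, a gene of cyclic AMP signalling. The nearest reproducible summit was 244 kb from PDK1, 564 kb from PDK3 and 885 kb from PDK4.

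**Figure D2:**
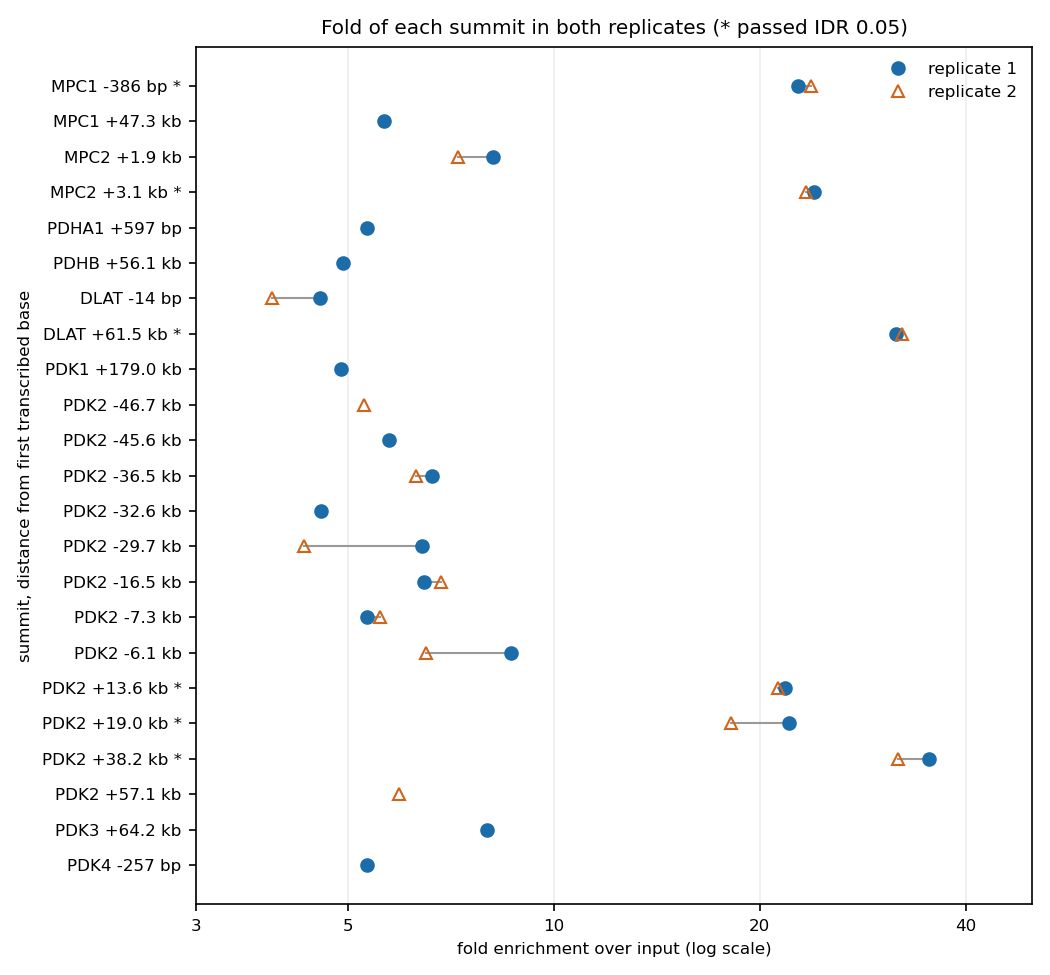
Fold enrichment over input on a log scale (x) for every matched summit and every summit of a single replicate at the 10 genes, named by distance from the first transcribed base (y). Filled circles are replicate 1, open triangles replicate 2, lines join a matched pair, and where several peaks of a replicate fell under a matched peak the strongest is drawn. The 6 reproducible summits, marked with an asterisk, have folds of 18.1 and above in both replicates, and all others lie at 8.65 or below.

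The number of genes with a signal depended on the replicate. In the list of replicate 1 alone, 9 of the 10 genes had a summit inside or within 50 kb, against 60.0% of all protein-coding genes. In replicate 2 alone there were 4 of the 10, against 56.9%. Within 1 kb of a gene end, replicate 1 had MPC1, PDHA1, DLAT and PDK4, against 12.2% of all protein-coding genes, and replicate 2 had MPC1 and DLAT, against 11.0%. Of the 22 replicate 1 peaks in these windows, 14 (63.6%, exact Clopper-Pearson 95% interval 40.7 to 82.8) overlapped a replicate 2 peak, and of the whole replicate 1 list 71.9% did. Of the 15 replicate 2 peaks, 13 (86.7%, 59.5 to 98.3) overlapped a replicate 1 peak, against 79.8% of the whole list. These intervals count peaks as independent, yet the PDK2 window alone held 10 of the 22 and 10 of the 15. Both include the share of the whole list, but no test can be drawn from them. The 8 peaks that replicate 1 held alone had folds of 4.56 to 7.99 with a median of 5.33, and the median of all 3955 such peaks was also 5.33. The 2 inputs served as the control for both lists, so the replicates are not independent in their background. Reads per peak were not used here, so a gene with no replicate 2 peak is not shown to lack signal there.

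The distances to a reproducible summit spread over most of the range seen for protein-coding genes. The summit was inside the gene at MPC2 and PDK2, 386 bp away at MPC1 and 22.5 kb at DLAT. It was 98.4 kb from PDHB and 154 kb from PDHA1, beside a median of 119 kb over all protein-coding genes. PDHA1, PDK1, PDK3, PDK4 and DLD lay farther than that median, and the other 5 genes nearer.

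**Figure D3:**
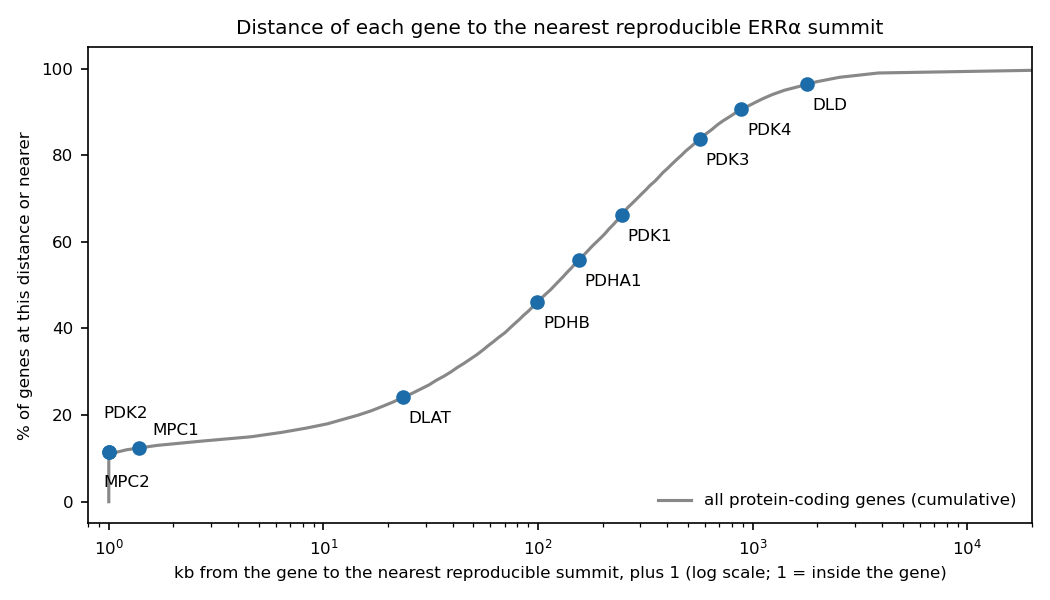
Distance in kb, plus 1, from each of the 10 genes to the nearest reproducible summit on a log scale (x) against the percentage of all protein-coding genes at that distance or nearer (y, grey line). MPC1, MPC2 and PDK2 are at the near end, and DLD at 1790 kb is farther than most genes.

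The 6 reproducible peaks were all in the upper part of the range of folds. Their means ran from 20.1 at the summit past the end of PDK2 to 33.6 at the summit beside PPP1R9B. They stood above 76.1% to 90.7% of the 5070 reproducible peaks. Of the 6, only the MPC1 peak lay within 1 kb of an end of one of the 10 genes.

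**Figure D4:**
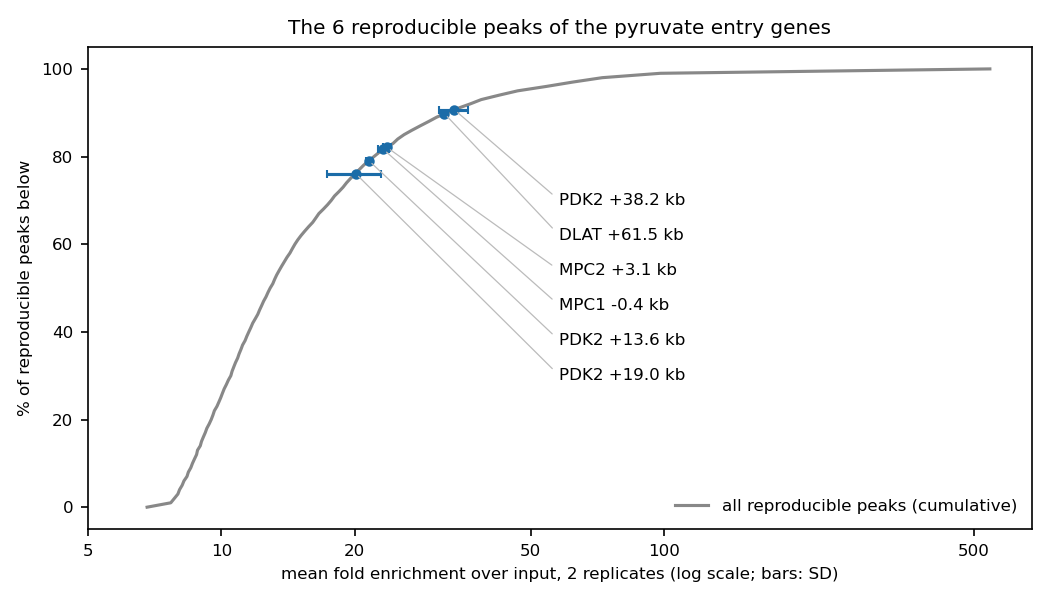
Mean fold enrichment of the 2 replicates on a log scale (x, bars are the SD, n = 2) against the percentage of all reproducible peaks with a lower mean fold (y). Points are the 6 reproducible peaks within 50 kb of the 10 genes, named by gene and distance from its first base, and the grey line is all 5070 reproducible peaks.

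No promoter of the 10 genes held the ERR motif. TNAAGGTCA was searched on both strands without a mismatch in the 16 promoter windows that RefSeq lists for them, and so were TCAAGGTCA and AAGGTCA, which overlap it, and the AP-1 motif TGANTCA. None of the 16 windows held any of the 4. Of all 22198 promoter windows of protein-coding genes, 0.671% held TNAAGGTCA, 3.22% AAGGTCA and 6.15% TGANTCA. An empty result says only that these letters are not in these windows. Of the 166 such windows with a reproducible summit inside, 12.0% (exact 95% interval 7.52 to 18.0) held TNAAGGTCA, 39.8% (32.3 to 47.6) AAGGTCA and 6.63% (3.35 to 11.5) TGANTCA. The MPC1 window is not among the 166, since its summit is farther upstream, and the sequence under that summit was not analysed here. The same holds for the sequence under the PDK4 summit of replicate 1, which also lay outside its window. The core AGGTCA alone, searched after the sequences had been seen, occurs in 11.9% of protein-coding promoter windows and in 1 of these 16, that of DLAT.

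Genes next to pyruvate entry were read from a list of 41 that covers lactate and pyruvate enzymes and transporters, the phosphatases and lipoylation enzymes of the dehydrogenase, the sister oxoacid dehydrogenases, the first steps of the citric acid cycle, and ERR receptors with their PGC-1 coactivators. A reproducible summit within 1 kb of an end was found for 9 of the 41 (22.0%), against 4.49% of all protein-coding genes, and inside or within 50 kb for 22 (53.7%), against 33.7%. The list was drawn up with earlier results of these data known, so its share is a description. ESRRA itself had a mean fold of 544. Of the sister complex that acts on oxoglutarate, OGDH reached 38.4 ± 5.27 (SD, n = 2) and the succinyltransferase gene DLST 11.5 ± 2.57 with its summit 113 bp from the start. PKM, the pyruvate kinase that makes pyruvate, had 28.5 ± 6.85 at 111 bp from its start, and LDHB, a lactate dehydrogenase gene, 17.1 ± 1.70 at 859 bp.

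BCKDK, the kinase of the branched-chain oxoacid dehydrogenase and a relative of the PDK genes, had a mean fold of 15.2 ± 1.52 (SD, n = 2), but that summit was 9727 bp from its start and inside its neighbour KAT8. LDHD, an enzyme of D-lactate, reached 13.2 ± 3.27 and the mitochondrial malic enzyme gene ME3 8.96 ± 1.28. No reproducible summit lay within 1 kb of an end of the other 32. These include PDHX, the subunit that anchors DLD to the complex, and PDP1, PDP2 and PDPR. PDP1 and PDP2 encode catalytic subunits of the phosphatase that reverses the PDK kinases, and PDPR its regulatory subunit. Also among the 32 are the lipoylation genes LIAS, LIPT1 and LIPT2, pyruvate carboxylase PC, and the lactate transporter genes SLC16A1, SLC16A3 and SLC16A7. With all 10059 matched peaks, LDHA, PC, CS and SLC16A3 were added, for 13 of the 41, against 8.85% of all protein-coding genes. Of the 10 pyruvate entry genes, the same wider list had MPC1 and DLAT within 1 kb of an end (8.85%) and MPC1, MPC2, DLAT and PDK2 within 50 kb (50.8%).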

How the data were processed

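ERRα ChIP-seq peak lists of 2 replicates and their matched list were analysed. Per the submitters' processing notes, the build was hg38. The same notes name MACS2 2.2.6, Bowtie2 2.3.5 and Trim Galore 0.6.5, with deepTools, SAMtools and Picard. No settings are recorded there. Each replicate list holds the authors' fold enrichment (a ratio of ChIP over a background estimated from input) and −log10 q per peak. The file names give both inputs as the control. The matched list, in the layout of IDR output, holds a deposited score and a value equal, within 0.001, to the sum of the folds of all overlapping replicate peaks for all 10059 peaks. Its 8 columns per replicate were not used. Folds are those of the strongest overlapping peak of each replicate.

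Summits (start plus offset) on chromosomes 1 to 22, X and Y were assigned to RefSeq genes (GRCh38.p14, the same build as hg38) with Python 3.11.15 and pandas 2.3.3. Peaks on other contigs (371, 358 and 272 in replicate 1, replicate 2 and the matched list) were left out. Counting was tested on simulated data. Strand and starts came from the RefSeq promoter table, which lists all 10 genes. Genes of the list of 41 with no entry there include GPT, GPT2, LDHD, MPC1L, OGDH, PDP1 and SLC16A1. Named are all 10 genes, the genes of the list of 41 with a reproducible summit within 1 kb of an end, neighbours that share a summit, and the 3 genes nearest to MPC1 in fold. For one such gene no values are reported here. Other names were chosen after their values were seen. The genes and lists were chosen with earlier results of these data known. Depth per peak was not used, and intervals cover counting error only. Alternatives were other IDR limits, windows, replicate lists, q limits, overlaps and motifs.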

Additional observations from a re-analysis of the deposited data

How the results depend on the processing

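MPC1 kept its place as the gene with a reproducible summit within 1 kb of an end at an IDR of 0.01, with a −log10 q of at least 5 in both replicates, with a 500 bp window and at RefSeq starts alone. The count of such genes was 2 of 10 with all matched peaks (8.85% of all protein-coding genes) and 3 with a 5 kb window (9.28%). It was 2 in replicate 2 alone (11.0%) and 4 in replicate 1 alone (12.2%). Genes with a reproducible summit inside or within 50 kb numbered 4 (33.7% of all protein-coding genes). In replicate 2 alone there were 4 (56.9%) and in replicate 1 alone 9 (60.0%). The 6 summits became 13 with all matched peaks and 15 to 22 when a replicate was left out. Of the list of 41, 9 genes had a reproducible summit within 1 kb of an end, against 4.49% of all protein-coding genes. The count was 16 in replicate 1 alone, against 12.2%, and 16 in replicate 2 alone, against 11.0%. At RefSeq starts alone it was 5, against 4.51% of the genes with a listed start, which 33 of the 41 have. Some of these sets are larger or smaller by construction, and the cause of the difference between the replicates was not tested. The core AGGTCA, a choice made after seeing the data, was found in 1 gene in place of 0. Under stricter overlap rules, fewer peaks in the windows of the 10 genes were shared. With summits within 100 bp, the replicate 1 share was 40.9% in place of 63.6%, against 59.9% of the whole list. The replicate 2 share was 60.0% in place of 86.7%, against 66.6%. With an overlap of 50% of both peaks the shares were 54.5% (whole list 67.5%) and 80.0% (75.1%). All stayed within their intervals, which cover counting error only and do not measure the effect of the rule. The search for motifs under the summits was not run. No paired analysis was possible because both replicate lists were called against both inputs and no test was made. Folds rest on 2 libraries, and weak peaks near the limit of detection cannot be told from absent ones at this depth.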
